A study of Homo sapiens with 10 samples.

Results

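Interferon-stimulated and class I MHC genes were examined in MRC5 cells, a fibroblast line from human lung, after exposure to medium taken from A549 cells, a lung adenocarcinoma line with alveolar epithelial features. The 5 static libraries came from fibroblasts given medium of A549 cells that had not been stretched, and the 5 stretch libraries from fibroblasts given medium of stretched A549 cells. All 10 libraries are of 1 cell line, all had received A549 medium, and fibroblasts in fresh medium were not analysed here. The sample descriptions give 24 hours and the series design 6 hours, so the length of exposure is uncertain. The series title concerns stretch-induced senescence of epithelial cells and activation of fibroblasts by paracrine signals, and the comparison shows how this gene group stood in the receiving fibroblasts. Whether the libraries in a group are separate cultures is not stated in the labels, and p-values therefore cover only how far these samples differ from each other, which can be a technical spread.

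The group was a list of 38 named genes of interferon signalling, interferon response and class I antigen presentation. Rows were found by Ensembl identifier for 29 of the 38, among 14054 genes in the table. IFNAR1, RIGI, OAS1, OAS2, IFI27, TAP1, TAP2, TAPBP and HLA-E had no row under their identifier and were not analysed here. Of the 29, 22 passed the filter on low counts and were tested, and 7 did not.

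Interferons are secreted proteins that cells release on sensing viral nucleic acid or damage. Type I interferons bind a receptor of IFNAR1 and IFNAR2 chains, whose kinases JAK1 and TYK2 phosphorylate STAT proteins such as STAT2, and these join IRF9 and bind the interferon-stimulated response element (ISRE) in promoters of target genes. Interferon-gamma acts through IFNGR1 and IFNGR2, with IRF1 among its early targets. Class I molecules show peptides of the cell's own proteins to cytotoxic T cells, and each is a heavy chain such as HLA-B or HLA-C bound to beta-2-microglobulin, the product of B2M. Fibroblasts carry this machinery and respond to interferon in culture.

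Total counts ran from 4231653 to 8455073 per library and did not separate the groups (exact permutation test, two-sided p = 0.444). CPM here are counts scaled by library total and by TMM, a factor that evens out library composition, and because each gene is read through its own amplified target they are compared between libraries and not between genes. The 10 fibroblast markers were all in the table, at summed CPM of 10260 to 11490 (static) and 10630 to 12500 (stretch). Of 18 markers of A549 cells and lung epithelium 8 were in the table, at 28.75 to 36.7 and 30.63 to 36.37 CPM. Of 12 leukocyte markers 5 were, at 195.5 to 210.4 and 183.9 to 233.8 CPM, mostly CD68, and PTPRC, which marks all leukocytes, had no row. Of 8 endothelial markers 6 were in the table, at 59.12 to 71.59 and 52.42 to 72.89 CPM, mostly TEK. Static 7 stood apart in both directions. It was the highest library for 6 of the 22 tested members, 23 of 67 other pathway genes and 19.2% of all genes. It was the lowest for 2 of the members, 10 of the pathway genes and 19.6% of all genes.

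As a group, the 22 tested genes lay evenly on both sides of 0. Of the 22, 11 had a log2 fold change (stretch minus static medium) above 0 and 11 below 0, with a median of -0.018, where the median over all 10968 genes tested was 0.00035. Without static 7 the members' median was 0.022. With edgeR's quasi-likelihood test and Benjamini-Hochberg adjustment over all genes, 0 of the 22 passed an adjusted p of 0.05, against 0% of all genes, and 0 also with any 1 library left out. DESeq2 called 1 of the 22 (B2M) and gave no adjusted p to OAS3 and ISG20. It called 2.84% of the genes to which it gave an adjusted p. Limma-voom called none of the 22, against 0.00912% of all genes. At an unadjusted p under 0.05 in edgeR there were 3 members, or 13.6%, while the share over all genes was 16.4%. They were MX1 on the higher side (background 8.08%) and IFI44 and B2M on the lower side (background 8.37%). The groups of 5 libraries did not overlap for 1 member, B2M, which is 4.55% of the 22, against 3.72% of all genes, 1.98% lower and 1.74% higher. These shares are close to the background. The 95% interval of the fold change, not adjusted for the number of genes, spanned 0 for 19 of the 22. The median distance from the estimate to the end of its interval was 0.34 on the log2 scale. Smaller differences in a typical member could not be told from 0 with 5 libraries per group. Larger ones, MX1 at 0.55 and IFI44 at -0.59, did not pass the adjusted threshold in edgeR either.

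**Figure D1:**
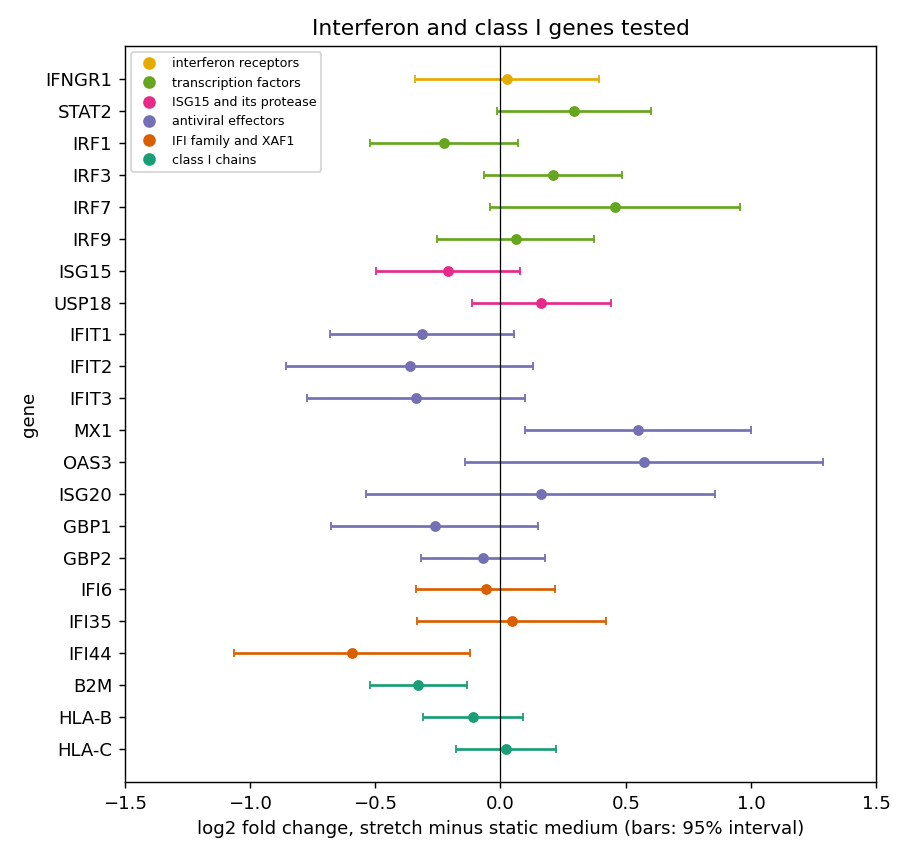
The horizontal axis is the log2 fold change, stretch minus static medium, of the 22 tested genes in rows, with bars for the 95% interval and colours for the gene's role. The intervals of MX1, IFI44 and B2M lie to one side of 0 and the other 19 span 0.

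Averaged over the 22 genes, the log2 CPM of a library relative to each gene's mean was 0.011 ± 0.042 in static and -0.011 ± 0.050 in stretch libraries (SD, n = 5 each). Static libraries ran from -0.063 to 0.036 and stretch libraries from -0.071 to 0.047, so the ranges overlapped almost completely. These are descriptions with no test. In bulk RNA, fewer cells that express a gene and less RNA of it per cell cannot be told apart.

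**Figure D2:**
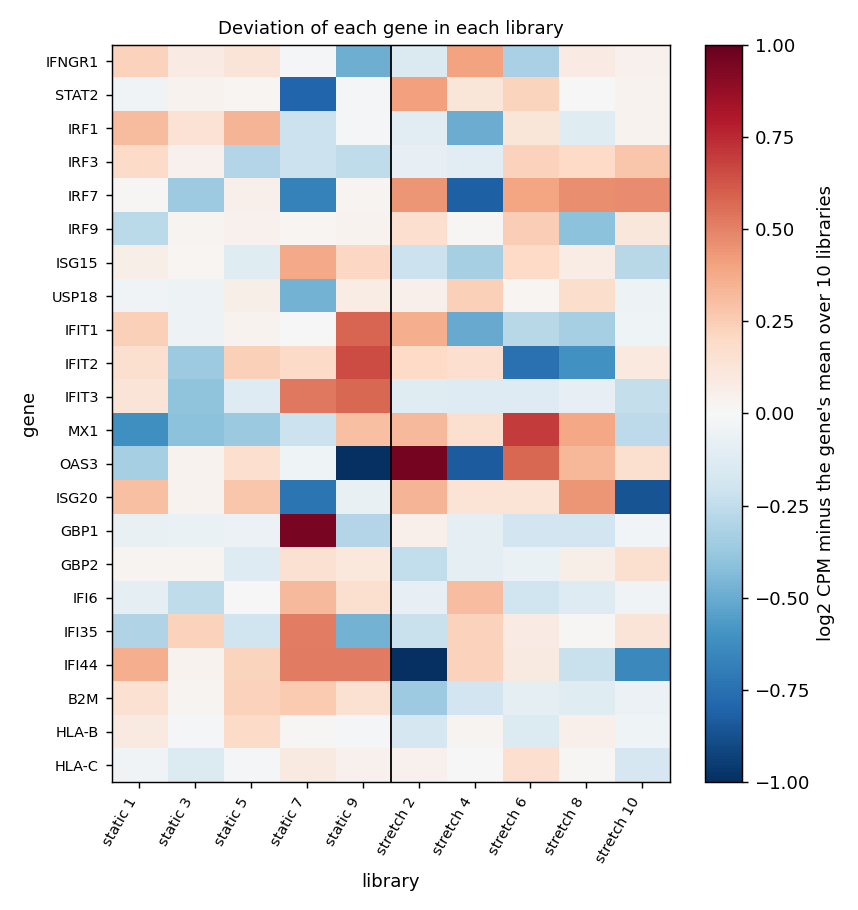
Rows are the 22 tested genes and columns the 10 libraries, with colour for log2 CPM minus the gene's mean over the 10 libraries, clipped at 1 and -1. No column is uniformly red or blue, and the B2M row is red or white in the 5 static and blue or near white in the 5 stretch libraries.

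Sequences show what the genes' promoters share whether or not they moved together. RefSeq promoters on GRCh38.p14, 250 bases before to 50 after the gene's start, were found for 29 of the 38 listed genes. The letters searched, on both strands and with overlapping matches allowed, were GAAA, then 2 bases of any kind, then GAAA, the core of the ISRE. They occurred in 17 of these 29 promoters, or 58.6%, and in 1255 of 35114 promoters in the whole table, or 3.57%. The genes were listed as interferon-responsive, so this is a description of the list. Among the 17 tested members with a promoter in the table, 10 had a match, and their fold changes ran from -0.59 to 0.57, with 3 above 0 and 7 below. The 7 without a match ran from -0.23 to 0.29, with 5 above 0 and 2 below. The promoters of the 3 genes with an unadjusted p under 0.05, and of IFIT1, are printed 5′ to 3′ on the gene's strand, with matches in capitals. They show that a match occurred in the windows of genes on either side of 0.
B2M promoter, chr15:44711267-44711566, plus strand: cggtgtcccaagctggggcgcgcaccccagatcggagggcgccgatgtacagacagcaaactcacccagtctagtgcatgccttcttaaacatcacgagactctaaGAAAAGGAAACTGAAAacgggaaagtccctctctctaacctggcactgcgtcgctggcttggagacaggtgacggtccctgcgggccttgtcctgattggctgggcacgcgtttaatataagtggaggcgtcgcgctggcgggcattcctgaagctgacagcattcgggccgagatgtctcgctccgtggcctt
MX1 promoter, chr21:41420308-41420607, plus strand: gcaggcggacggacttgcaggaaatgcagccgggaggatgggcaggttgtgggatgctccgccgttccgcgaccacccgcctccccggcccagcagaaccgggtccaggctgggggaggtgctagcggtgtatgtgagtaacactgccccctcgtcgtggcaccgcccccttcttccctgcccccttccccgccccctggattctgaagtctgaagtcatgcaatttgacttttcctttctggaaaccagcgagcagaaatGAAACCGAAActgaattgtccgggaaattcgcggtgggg
IFI44 promoter, chr1:78649539-78649838, plus strand: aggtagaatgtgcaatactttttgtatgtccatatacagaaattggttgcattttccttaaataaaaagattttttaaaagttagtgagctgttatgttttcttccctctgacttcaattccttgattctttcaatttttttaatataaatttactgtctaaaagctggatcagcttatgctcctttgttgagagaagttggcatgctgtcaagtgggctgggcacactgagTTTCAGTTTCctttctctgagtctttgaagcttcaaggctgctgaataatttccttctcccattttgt
IFIT1 promoter, chr10:89392373-89392672, plus strand: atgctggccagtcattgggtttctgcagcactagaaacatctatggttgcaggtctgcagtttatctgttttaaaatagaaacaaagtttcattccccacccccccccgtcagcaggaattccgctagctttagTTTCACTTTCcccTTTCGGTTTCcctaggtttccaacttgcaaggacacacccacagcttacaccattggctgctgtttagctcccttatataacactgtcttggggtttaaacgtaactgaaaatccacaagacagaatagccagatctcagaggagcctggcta
The capitals of B2M hold 2 overlapping matches and those of IFIT1 2 separate ones, both on the opposite strand. MX1 and IFI44 had 1 match each, after the start site in MX1 and on the opposite strand in IFI44. A match is not evidence of binding.

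Among the class I chains B2M was lower with stretch medium by DESeq2 and not by edgeR, and the heavy chains passed neither test. B2M (ENSG00000166710, GRCh38 chromosome 15, 44711487 to 44718877, plus strand), the light chain shared by all class I molecules, was at 1907, 1745.5, 2011, 2060.4 and 1904 CPM in static 1, 3, 5, 7 and 9. It was at 1336, 1499.5, 1611, 1577 and 1644 CPM in stretch 2, 4, 6, 8 and 10. Each stretch library lay below each static library, and stretch 2 was the lowest. The means were 1925.5 ± 121 and 1534 ± 123 CPM (SD, n = 5 each), a log2 fold change of -0.33 ± 0.091 (SE) with an interval of -0.52 to -0.14. The adjusted p was 0.129 in edgeR, 0.126 in limma-voom and 0.0269 in DESeq2, so the call rested on DESeq2 alone. Without 1 library at a time, the fold change in edgeR stayed between -0.36 and -0.28, with adjusted p from 0.0987 to 0.250.

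The heavy chains, which hold the peptide, had smaller estimates. HLA-B (chromosome 6, 31269491 to 31357188) was at 164, 152, 176, 155 and 153 CPM in static 1, 3, 5, 7 and 9 and at 137, 156, 140.2, 159 and 149 CPM in stretch 2, 4, 6, 8 and 10. The groups overlapped, and its log2 fold change was -0.11 (95% interval -0.31 to 0.092), or -0.072 without static 5. HLA-C (chromosome 6, 31268749 to 31272130) was at 614, 571, 622, 668 and 646 CPM in static libraries and at 648, 626, 704, 632 and 559.8 CPM in stretch libraries, in the same order. The HLA-C log2 fold change was 0.022 (95% interval -0.18 to 0.22). The estimate of B2M lies outside this interval, but the interval of B2M, -0.52 to -0.14, overlaps it. The bounds of HLA-B and HLA-C overlap in the annotation and class I genes are close in sequence, so how their reads were divided is uncertain.

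To compare the chains without any scaling between libraries, the count of B2M was divided by the summed count of HLA-B and HLA-C in the same library, a comparison chosen after the values were seen. The ratio was 2.45, 2.41, 2.52, 2.50 and 2.38 in static 1, 3, 5, 7 and 9. It was 1.70, 1.92, 1.91, 1.99 and 2.32 in stretch 2, 4, 6, 8 and 10. All stretch libraries lay below all static ones, and stretch 10 was close to static 9. The log2 difference was -0.33 (exact permutation test over libraries, two-sided p = 0.00794, the smallest that 5 against 5 can give, and 0.0159 adjusted over the 4 ratios computed). Against HLA-C alone the log2 difference was -0.35 (exact permutation test, adjusted p = 0.0159), and against HLA-B alone it was -0.22 (adjusted p = 0.0317). The ratios to HLA-B alone overlapped between groups, with stretch 6 at 11.495 and static 5 at 11.442. The ratio of HLA-C to HLA-B was 3.92 ± 0.33 in static and 4.30 ± 0.54 in stretch libraries (SD, n = 5 each; exact permutation test, adjusted p = 0.222). Because B2M was picked for its difference, these p-values describe a chosen gene. The size of a ratio depends on how well each target is amplified and is not a ratio of chains in the cell.

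**Figure D3:**
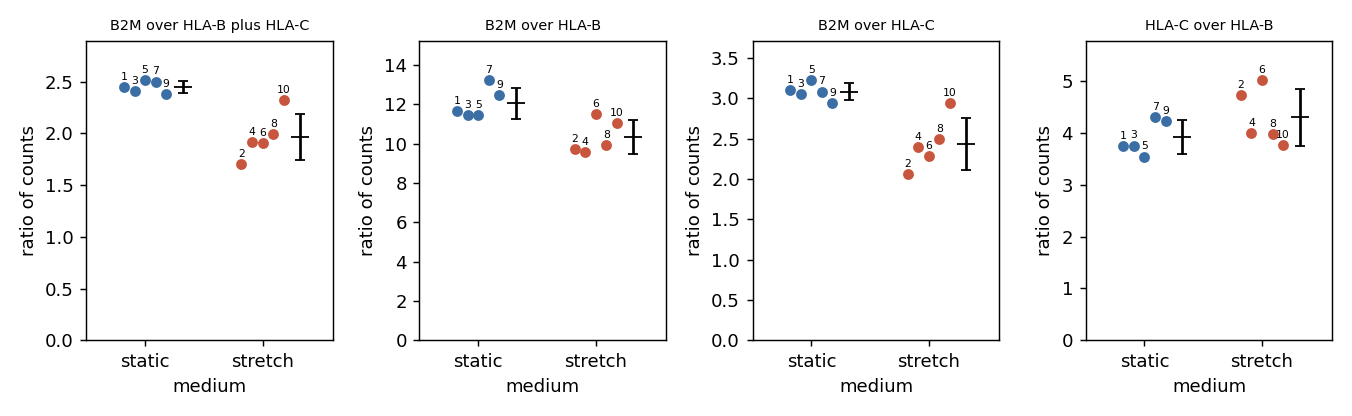
Each panel gives a ratio of counts within a library on the vertical axis, with static libraries in blue, stretch libraries in red, title numbers beside the points, and a dash with bar for mean and SD. B2M over HLA-B plus HLA-C runs from 2.38 to 2.52 in static and from 1.70 to 2.32 in stretch libraries. The groups overlap for B2M over HLA-B and for HLA-C over HLA-B.

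Of the receptors, IFNGR1, the ligand-binding chain for interferon-gamma (chromosome 6, 137197484 to 137219449), was at 16.5, 14.9, 15.4, 13.8 and 9.90 CPM in static and 12.7, 18.7, 11.1, 14.9 and 14.5 CPM in stretch libraries. The groups overlapped, and the log2 fold change was 0.027 (95% interval -0.34 to 0.39).

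The 5 transcription factors had a median log2 fold change of 0.21, with 4 above 0 and none past the adjusted threshold in edgeR (smallest adjusted p 0.325). STAT2, a signal transducer of the type I response (chromosome 12, 56341597 to 56360155), was at 108, 113, 112, 63.7 and 109.6 CPM in static 1, 3, 5, 7 and 9 and at 147, 121, 129, 111 and 114 CPM in stretch 2, 4, 6, 8 and 10. Static 7 was far below the other static libraries, which lay close together. Only stretch 8 lay inside the static range, and the other stretch libraries lay above it. The log2 fold change was 0.29 (-0.013 to 0.60), and 0.16 without static 7. Ranges in parentheses after a log2 fold change are its 95% interval. IRF7, which amplifies interferon production (chromosome 11, 612553 to 615999), was at 8.79, 6.72, 9.07, 5.35 and 8.93 CPM with static medium. In stretch 2, 6, 8 and 10 it was at 12.0, 11.6, 12.1 and 12.3 CPM, above each static library, and in stretch 4 at 4.81 CPM, the lowest of the 10. The log2 fold change was 0.46 (-0.042 to 0.96, adjusted p 0.345 in edgeR), and 0.63 without stretch 4 (adjusted p 0.102).

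IRF1, a factor induced early by interferon-gamma (chromosome 5, 132481609 to 132490798), was at 63.5, 56.1, 64.3, 43.9 and 50.2 CPM in static 1, 3, 5, 7 and 9 and at 47.1, 36.0, 55.3, 46.7 and 52.0 CPM in stretch 2, 4, 6, 8 and 10. It was the factor with an estimate below 0, a log2 fold change of -0.23 (-0.52 to 0.070), or -0.14 without stretch 4. IRF9, the DNA-binding partner of the STATs (chromosome 14, 24161053 to 24166565), was at 16.3, 20.0, 20.3, 20.0 and 20.1 CPM in static and 22.2, 19.8, 23.4, 14.7 and 21.3 CPM in stretch libraries. Its log2 fold change was 0.061 (-0.25 to 0.37), or 0.00038 to 0.16 without 1 library at a time, and the lowest library of each group, static 1 and stretch 8, lay apart from its group. IRF9 also overlaps an unnamed gene on its own strand. IRF3, which is present in resting cells and activated by sensors, had a log2 fold change of 0.21 (-0.064 to 0.48). IRF3 overlaps BCL2L12 on the opposite strand, which had a log2 fold change of 0.30 (-0.011 to 0.61), and the use of strand in counting is not given in the sources used here.

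ISG15, a ubiquitin-like protein attached to other proteins after interferon (chromosome 1, 1001138 to 1014540), was at 52.5, 50.9, 46.3, 65.7 and 58.1 CPM in static 1, 3, 5, 7 and 9 and at 43.2, 40.03, 57.9, 53.1 and 41.6 CPM in stretch 2, 4, 6, 8 and 10. The groups overlapped, and the log2 fold change was -0.21 (-0.50 to 0.076), or -0.13 without static 7. USP18, which removes ISG15 from proteins and restrains the type I receptor, had a log2 fold change of 0.16 (-0.12 to 0.44), or 0.076 without static 7, its lowest library. USP41, a close copy of USP18, is also in the table, at 1.04 ± 0.45 CPM in static and 1.52 ± 0.88 CPM in stretch libraries (SD, n = 5 each), so part of the USP18 signal is uncertain.

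The antiviral effectors were split. MX1, a dynamin-like GTPase that blocks viral replication (chromosome 21, 41420304 to 41459214), was at 5.27, 6.13, 6.30, 7.05 and 10.2 CPM in static 1, 3, 5, 7 and 9 and at 10.41, 9.24, 13.6, 10.9 and 6.83 CPM in stretch 2, 4, 6, 8 and 10. Of the stretch libraries 4 lay above 4 of the static ones, and static 9 and stretch 10 crossed over. The log2 fold change was 0.55 ± 0.21 (SE; 0.096 to 1.002, adjusted p 0.227 in edgeR and 0.165 in DESeq2), and 0.42 to 0.72 without 1 library at a time. OAS3, a synthetase that makes the activator of RNase L, was at 1.98 ± 0.64 CPM in static and 3.01 ± 1.32 CPM in stretch libraries (SD, n = 5 each), a log2 fold change of 0.57 (-0.14 to 1.29). It was tested on 6 to 26 counts per library.

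The 3 IFIT genes, neighbours on chromosome 10 whose products bind viral RNA, had estimates below 0. IFIT1 (89392546 to 89406486) was at 32.1, 26.2, 27.8, 27.1 and 40.7 CPM in static 1, 3, 5, 7 and 9 and at 35.1, 19.1, 22.4, 21.6 and 26.3 CPM in stretch 2, 4, 6, 8 and 10. Stretch 2 was above 4 of the static libraries, so the groups overlapped. The log2 fold changes were -0.31 (-0.68 to 0.056) for IFIT1, -0.36 (-0.85 to 0.13) for IFIT2 and -0.34 (-0.77 to 0.0997) for IFIT3, with adjusted p of 0.387, 0.455 and 0.433 in edgeR. Without static 9, the highest library for all 3, they were -0.19, -0.22 and -0.22, and IFIT2 was at -0.23 without stretch 6. All 3 lie within the bounds of LIPA on the opposite strand, which had a log2 fold change of -0.082 (-0.35 to 0.19).

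GBP1, an interferon-induced GTPase that attacks intracellular microbes, was at 39.1, 39.4, 39.7, 80.01 and 33.6 CPM in static 1, 3, 5, 7 and 9, and at 36.0 to 42.8 CPM in the stretch libraries. Static 7 alone set its log2 fold change of -0.26 (-0.68 to 0.15), which was 0.030 without that library. GBP2 was at 37.7 ± 2.78 and 35.9 ± 3.90 CPM (SD, n = 5 each), a log2 fold change of -0.070 (-0.32 to 0.18), or -0.12 to -0.022 without 1 library at a time. The nuclease ISG20 was at 0.80 to 2.46 CPM over the 10 libraries, with a log2 fold change of 0.16 (-0.54 to 0.86).

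IFI44, a cytoplasmic protein of the type I response (chromosome 1, 78649796 to 78664078), was at 11.2, 8.84, 10.1, 12.5 and 12.5 CPM in static 1, 3, 5, 7 and 9. In stretch 2, 4, 6, 8 and 10 it was at 3.85, 10.2, 9.22, 7.37 and 5.43 CPM. Stretch 4 and 6 lay inside the static range and the other 3 below it. The log2 fold change was -0.59 ± 0.22 (SE; -1.06 to -0.12, adjusted p 0.213 in edgeR and 0.133 in DESeq2), and -0.74 to -0.45 without 1 library at a time. IFI6, a membrane protein that protects against virus-induced cell death, was at 76.4 ± 11.9 CPM in static and 73.4 ± 10.8 CPM in stretch libraries (SD, n = 5 each). IFI35 was at 24.4 ± 7.22 and 25.3 ± 2.93 CPM (SD, n = 5 each), with a log2 fold change of 0.044 (-0.33 to 0.42). So the pair of effectors with the lowest p-values, MX1 and IFI44, differed in sign.

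**Figure D4:**
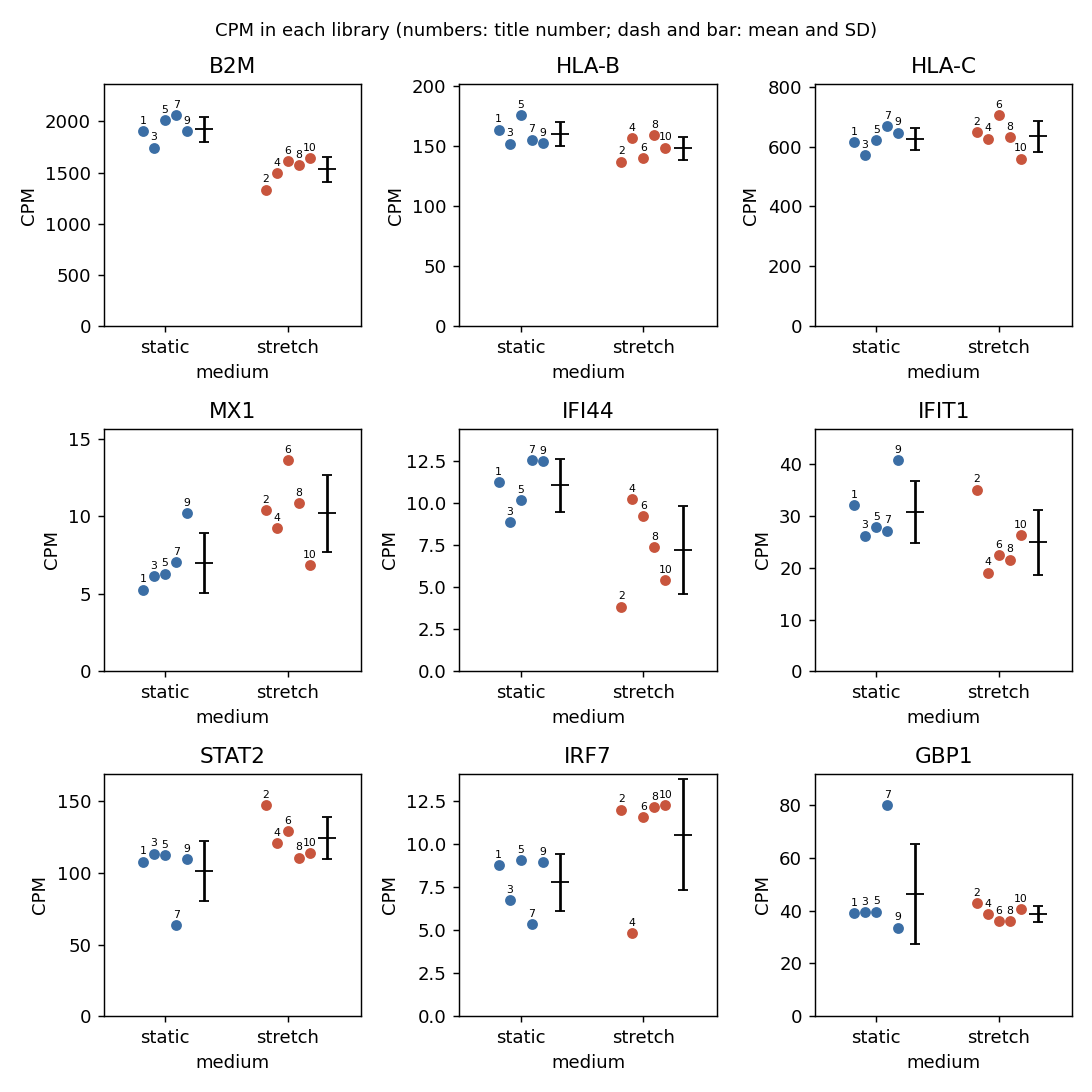
Each panel gives the CPM of a gene on the vertical axis in 5 static (blue) and 5 stretch (red) libraries, with title numbers beside the points and a dash with bar for mean and SD. The B2M groups do not overlap. Static 7 stands apart in STAT2 and GBP1, and stretch 4 in IRF7.

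The 7 members below the filter had at most 13 counts in any library, where the counting floor is 3 counts. The RNA sensor IFIH1, which starts interferon production, had 9, 5, 13, 12 and 9 counts in static 1, 3, 5, 7 and 9 and 9, 3, 8, 8 and 5 in stretch 2, 4, 6, 8 and 10. XAF1, which counters inhibitors of apoptosis, had 6, 6, 1, 6 and 4 counts in static and 2, 1, 1, 0 and 0 in stretch libraries. XAF1 sums to 23 and 4 counts, and each of its stretch libraries lay under the floor. With no filter it had an unadjusted p under 0.05 in edgeR, as did 4 of 29 members and 1976 of 14054 genes. No member passed the adjusted threshold in that fit. BST2, which tethers budding virus, had 1 to 6 counts in each library, and MX2, OASL, RSAD2 and IFI44L 0 to 5. At this depth no difference in any of the 7 could be judged.

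Other genes of the pathway, 108 in lists by role, gave a like picture with a somewhat larger share of low p-values. Of these, 81 were in the table and 67 were tested, with 27 log2 fold changes above 0, 40 below and a median of -0.059. In edgeR 0 of the 67 passed the adjusted threshold, and 16 had an unadjusted p under 0.05, or 23.9% where all genes gave 16.4%, with 7 higher and 9 lower. The groups did not overlap for 4, TRIM22, IFNAR2, PTPN11 and NMI, or 5.97% where all genes gave 3.72%.

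Of 5 other receptor chains and kinases tested, 2 had log2 fold changes above 0 (TYK2 at 0.25 and IFNLR1 at 0.029) and 3 below, and none passed the adjusted threshold in edgeR. IFNAR2, the type I receptor chain (chromosome 21, 33229901 to 33265675), was at 30.1, 28.3, 33.2, 35.4 and 34.7 CPM in static 1, 3, 5, 7 and 9 and at 25.8, 27.3, 22.8, 26.5 and 26.1 CPM in stretch 2, 4, 6, 8 and 10. The groups did not overlap, and the log2 fold change was -0.33 (-0.59 to -0.077, adjusted p 0.196 in edgeR). Its bounds overlap those of the read-through gene IFNAR2-IL10RB, with a log2 fold change of -0.075 (-0.31 to 0.16). The kinase JAK1 (chromosome 1, 64833229 to 64966504) was at 375 ± 35.2 and 288 ± 73.1 CPM (SD, n = 5 each), a log2 fold change of -0.38 (-0.69 to -0.078), with stretch 10 at 402 CPM inside the static range. IFNGR2, the signalling chain for interferon-gamma, had a log2 fold change of -0.14 (-0.48 to 0.20), or -0.25 to -0.051 without 1 library at a time.

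PTPN11, whose product SHP2 is a phosphatase in cytokine and growth factor signalling (chromosome 12, 112418351 to 112509913), was at 243, 243, 264, 278 and 229 CPM in static 1, 3, 5, 7 and 9. In stretch 2, 4, 6, 8 and 10 it was at 169.7, 218, 144, 186 and 199.5 CPM, below each static library. Its log2 fold change was -0.45 ± 0.12 (SE), with an adjusted p of 0.114 in edgeR and 0.0186 in DESeq2. The bounds of PTPN11 overlap those of RPL6 on the opposite strand, a ribosomal protein gene with a log2 fold change of -0.60 (-0.95 to -0.26). Whether the 2 genes shared any reads was not tested.

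Around class I assembly, the chaperone CANX was at 409.7 ± 53.1 CPM in static and 301 ± 106 CPM in stretch libraries (SD, n = 5 each), a log2 fold change of -0.45 (-0.83 to -0.064), with stretch 4 at 468 CPM, the highest of the 10 libraries. PSME2, a subunit of the proteasome activator induced by interferon-gamma, had a log2 fold change of -0.44 (-0.79 to -0.095) and overlaps RNF31, with one of 0.26 (-0.0038 to 0.53). MICB, a stress-induced class I relative, had a log2 fold change of 0.41 (0.061 to 0.75). PSMB8, PSMB9 and PSMB10 of the immunoproteasome, HLA-F and HLA-G had no row and were not analysed here. None of these passed the adjusted threshold in edgeR.

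Among other interferon-induced genes, 4 of 26 tested had a low unadjusted p on the higher side and 3 on the lower, where the shares over all genes were 8.08% and 8.37%. TRIM22, a ubiquitin ligase that restricts viruses (chromosome 11, 5689689 to 5737089), was at 73.4, 83.7, 77.8, 54.8 and 68.0 CPM in static 1, 3, 5, 7 and 9 and at 85.8, 89.9, 86.9, 88.7 and 99.9 CPM in stretch 2, 4, 6, 8 and 10. The groups did not overlap, and the log2 fold change was 0.33 (0.084 to 0.58, adjusted p 0.183 in edgeR). TRIM22 overlaps TRIM5 on the opposite strand, which was at 4.27 ± 1.01 CPM in static and 5.50 ± 3.90 CPM in stretch libraries (SD, n = 5 each). It also overlaps OR56B1 on its own strand. The log2 fold change of IFITM3, which blocks viral entry and is close in sequence to its neighbours, was 0.25 (0.026 to 0.48), that of the secreted glycoprotein gene LGALS3BP 0.51 (0.082 to 0.94) and of PML, of the nuclear bodies, 0.46 (0.019 to 0.91). On the lower side the log2 fold changes were -0.61 (-1.14 to -0.072) for NMI, an adaptor of STAT signalling whose groups did not overlap, -0.39 (-0.76 to -0.019) for the GTPase GBP3 and -0.47 (-0.93 to -0.0084) for the antiviral gene SAMD9L. Static 7 was the highest library for all 3, and without it these values were -0.38, -0.225 and -0.245. UBA7, the activating enzyme of ISG15, had a log2 fold change of 0.43 (0.11 to 0.75), the kinase TBK1 one of 0.27 (0.022 to 0.52) and the DNA sensor IFI16 one of -0.24 (-0.46 to -0.015), or -0.16 without static 7. All had an adjusted p above 0.05 in edgeR.

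Of 9 interferon ligand genes 2 were in the table, and neither passed a test. They were IFNA1 at 10.2 ± 3.21 and 11.8 ± 1.38 CPM and IFNE at 12.9 ± 8.51 and 13.2 ± 4.54 CPM (SD, n = 5 each). The log2 fold change was 0.19 (-0.24 to 0.63) for IFNA1 and 0.077 (-0.65 to 0.80) for IFNE. Alpha interferon genes are near-identical, so IFNA1 is uncertain. The interferon-induced chemokines CXCL10 and CXCL11 were below the filter, at 1.895 ± 0.895 and 1.08 ± 0.30 CPM for CXCL10 (SD, n = 5 each).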

How the data were processed

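Total RNA (Trizol) went into an Ion AmpliSeq whole-transcriptome kit, which amplifies short targets by PCR, per the labels' protocols. The submitters' processing notes name fastp 0.20.1, Salmon 1.9 and hg38/GRCh38. The annotation, strand setting and rounding were not given in the sources used here. What the authors deposited are whole-number counts per Ensembl gene, unscaled, for 14054 genes each above 0 in at least 5 libraries, so genes seen in fewer could not be examined. Columns were matched to samples by the number in the title. Symbols were found for 13831 identifiers, and 194 are absent from GENCODE 29, the source of gene positions. Amplified reads are not independent molecules, and a floor of 3 counts covers counting error only.

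Counts of all genes were fitted in R 4.3.3 with edgeR 4.0.16 (filterByExpr with a minimum count of 10 and total of 15, TMM, quasi-likelihood test, stretch minus static, Benjamini-Hochberg over 10968 genes, threshold 0.05). The script was tested on simulated data. Alternatives were DESeq2 1.42.0 and limma-voom (limma 3.58.1) on the same genes, other scalings, filters and thresholds, and each library left out. The log2 CPM used a prior count of 2. The B2M ratios were added after the values were seen. The listed genes and pathway lists were chosen with earlier results of these data known, so list medians and counts carry no test. Values in every library are given for members with an unadjusted p under 0.05 or groups that do not overlap, and for a set of receptors, factors, effectors and class I genes named regardless of result. Pathway genes are named where the unadjusted p was under 0.05, with JAK1, IFNAR2, IFNGR2, PSMB8 and PSMB9 in any case, and 1 more gene named in any case is not reported here.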

Additional observations from a re-analysis of the deposited data

Results flagged for a closer look

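Within each group of 5 libraries, 78 groups of values from 39 genes were checked for a library far from the rest, and 8 were found, where chance marks about 1 group in 20. In static 7 STAT2 was at 63.7 CPM, where the nearest static library was at 108 CPM, and USP18 at 22.6 CPM, with the nearest at 30.4 CPM. In the same library GBP1 was at 80.01 CPM, against 39.7 CPM in the next, and NMI at 6.27 CPM, against 3.69 CPM. In stretch 4 IRF7 was at 4.81 CPM, with the nearest stretch library at 11.6 CPM, and IFI6 at 91.99 CPM, with the nearest at 72.5 CPM. IRF9 was at 16.3 CPM in static 1 (nearest 19.97 CPM) and PSME2 at 51.8 CPM in stretch 8 (nearest 34.6 CPM). Of the 8, 4 were in static 7.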

How the results depend on the processing

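With edgeR 0 genes and 0 members were called, and 1804 genes and 3 members had an unadjusted p under 0.05. DESeq2 called 275 genes, 125 higher and 150 lower, and 1 member, B2M. Limma-voom called 1 gene and a threshold of 0.1 gave 61 genes, 16 higher and 45 lower, neither with a member. With 1 library left out, edgeR called 0 to 39 genes (39 without stretch 4, 2 without stretch 6, 1 without stretch 10) and 0 members in each of the 10 fits. Members whose groups did not overlap numbered 1 to 3: without stretch 4 they were IRF7, OAS3 and B2M, and without stretch 8 STAT2 and B2M. Leaving out a library makes it easier for groups not to overlap, and the share over all genes in those fits was not computed. The members' median log2 fold change ran from -0.071 (without stretch 4) to 0.022 (without static 7). Of 39 named genes, 33 kept their sign in each setting in which they were fitted. The other 6 changed sign in some fits that left out a library, with ranges of -0.084 to 0.11 for IFNGR1, -0.011 to 0.33 for ISG20, -0.36 to 0.030 for GBP1, -0.15 to 0.023 for IFI6, -0.054 to 0.21 for IFI35 and -0.017 to 0.062 for HLA-C. The cause was not tested. B2M and PTPN11 passed 0.05 in DESeq2 (adjusted p 0.0269 and 0.0186). The log2 difference in the B2M ratio was -0.39 to -0.27 with a library left out. Its direction could not change in those fits, because the groups did not overlap. No paired analysis was possible because the groups share no title number.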
